A study of Mus musculus with 4 samples.

Results

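The skeletal muscle genes measured in sciatic nerve were 42 of the 50593 genes in the table. They were selected by gene symbol and encode parts of the sarcomere, of excitation-contraction coupling, of muscle energy metabolism and of muscle gene regulation. As classed here by fibre type, 15 encode forms of fast fibres, 7 forms of slow fibres and 2 developmental heavy chains. The class of both fibre types holds 15 genes, with Tpm1, Tpm2 and Tpm3 placed there as whole genes. The last 3 encode transcription factors of muscle or its stem cells. The selection was made with the values of both groups known, so counts, medians and directions over these genes are a description and carry no test.

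The transcriptome of the sciatic nerve was read at 6 months of age in 2 groups, HSF V30M, which models TTR V30M amyloidosis, and HSF WT, its control. HSF V30M mice carry a human TTR transgene with the V30M mutation and lack endogenous Ttr, and they are heterozygous for a deletion of Hsf1, the gene of heat shock factor 1. HSF WT mice were wild-type animals that carry the same heterozygous Hsf1 deletion, so both groups share it. The strain label of all 4 samples is 129S1/SvImJ. The stated differences between the groups are the transgene and, where the controls kept it, the endogenous gene. The labels do not exclude other differences between the mice. The labels name 2 mice per group, whereas the methods give n = 4 without saying whether this is per group. The table holds 1 FPKM (fragments per kilobase of transcript, scaled to the mapped fragments of the library) per gene and group and no value per mouse, so the spread between mice is unknown and no difference between groups was tested.

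The contractile unit of striated muscle is the sarcomere, in which myosin thick filaments pull on actin thin filaments when calcium binds troponin and tropomyosin moves. Calcium leaves the sarcoplasmic reticulum through the ryanodine receptor, is held there by calsequestrin and is returned by the SERCA pump. Fast and slow fibres use separate genes for many of these proteins, and IIB fibres with the Myh4 heavy chain are the fastest of the mouse. Sciatic nerve is made of axons, Schwann cells and connective sheaths and lies between limb muscles. In such bulk tissue fewer muscle fibres and less RNA per fibre cannot be told apart.

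The labelled tissue was checked on markers of Schwann cells, the glia of peripheral nerve. All 11 were detected in both groups, the lowest of them at 36.3 FPKM in HSF V30M and at 37.6 FPKM in HSF WT. The worth of 1 fragment was read from genes with 1 transcript, and it placed the deeper library of a group at 1.18 times the other in HSF V30M and 1.35 times in HSF WT. The depths cannot be assigned to single mice, so fragments behind a value are given as the fewest the depths allow. They assume that all reads came from the longest protein-coding transcript. Reads from shorter transcripts would make the fragments fewer and the intervals wider. All intervals on levels are exact Poisson 95% intervals from those fragments and cover counting error only.

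Upstream sequence is shown for 4 genes that were lower in HSF V30M and for Myh8, a neighbour of Myh4 with next to no reads, so that the shared letters can be seen beside the values. RefSeq promoters on GRCm38.p6 were matched by symbol for 33 of the 42 genes. The 250 bases before the start are printed 5′ to 3′ on the gene's strand, and capitals mark the E-box CAGCTG, which is the kind of site that MyoD family factors bind, the TATA box letters TATAAA, and the consensus of MEF2, a factor of muscle genes. All were searched on both strands, and MEF2 and TATA box matches can overlap, as they do in Myh4 and Myh8. Myh4 (chr11:67237562-67237811, plus strand) encodes the IIB heavy chain and Myh8 (chr11:67276874-67277123, plus strand) the perinatal one. Mylpf (chr7:127211358-127211607, plus strand) encodes the fast regulatory light chain. Acta1 (chr8:123894776-123895025, minus strand) encodes skeletal alpha actin, and Pvalb (chr15:78206401-78206650, minus strand) encodes the calcium buffer parvalbumin.
Myh4: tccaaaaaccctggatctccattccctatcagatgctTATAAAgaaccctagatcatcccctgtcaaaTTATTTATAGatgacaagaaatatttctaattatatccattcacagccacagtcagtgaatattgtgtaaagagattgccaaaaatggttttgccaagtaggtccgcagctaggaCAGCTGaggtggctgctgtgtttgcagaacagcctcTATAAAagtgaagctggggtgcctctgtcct
Myh8: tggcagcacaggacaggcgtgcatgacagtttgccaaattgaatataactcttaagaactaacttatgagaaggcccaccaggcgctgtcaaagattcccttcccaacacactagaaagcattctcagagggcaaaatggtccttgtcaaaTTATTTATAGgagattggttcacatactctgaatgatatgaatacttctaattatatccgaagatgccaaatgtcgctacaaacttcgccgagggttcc
Mylpf: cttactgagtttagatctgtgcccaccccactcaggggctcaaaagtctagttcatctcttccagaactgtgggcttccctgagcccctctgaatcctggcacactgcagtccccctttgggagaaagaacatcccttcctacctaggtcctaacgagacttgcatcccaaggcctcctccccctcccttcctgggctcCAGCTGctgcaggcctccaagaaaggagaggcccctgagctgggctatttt
Acta1: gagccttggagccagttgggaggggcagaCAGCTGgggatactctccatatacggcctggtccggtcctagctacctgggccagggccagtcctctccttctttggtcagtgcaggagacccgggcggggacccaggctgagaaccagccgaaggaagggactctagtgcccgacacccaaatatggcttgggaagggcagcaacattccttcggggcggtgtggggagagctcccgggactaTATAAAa
Pvalb: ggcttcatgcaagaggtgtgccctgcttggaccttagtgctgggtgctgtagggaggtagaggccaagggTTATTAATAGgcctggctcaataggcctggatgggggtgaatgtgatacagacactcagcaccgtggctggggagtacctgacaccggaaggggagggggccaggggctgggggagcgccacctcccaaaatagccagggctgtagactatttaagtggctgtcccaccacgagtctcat

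Counted from the start, the Myh4 window held an E-box at -67 to -62, TATAAA at -31 to -26 and -213 to -208, and a MEF2 match at -182 to -173. The Myh8 window held the same 10 letters of the MEF2 match at -99 to -90 and no E-box. Mylpf had an E-box at -51 to -46. Acta1 had an E-box at -221 to -216 and TATAAA at -7 to -2, and Pvalb had only a MEF2 match, at -180 to -171. The other Pvalb window, not shown, held no match. All these positions depend on the RefSeq start. Bases just after it were found in an annotated transcript of the gene for 30 of the 40 windows of the muscle genes. For Acta1 the window stops at base 123894776, whereas the annotated gene begins at base 123894751. For Myh4 the window stops at base 67237811, and the annotated gene begins further on, at base 67238029. The Mylpf window lies inside the annotated gene, which begins at base 127208890.

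Over all 33 genes with a promoter, 14 held CAGCTG (42.4%), against 14.7% of the 27025 genes with a promoter of this length. A MEF2 match was present in 5 of 33 (15.2%), against 3.42% of all genes. TATAAA was present in 8 of 33 (24.2%), against 14.3%. Of the genes lower in HSF V30M past the fold used below, 11 had a promoter, and 6 of these (54.5%) held an E-box and 3 (27.3%) a MEF2 match. Tnnc1, Tnnc2 and Mybpc2, lower but not among the sequences shown, held no E-box, TATAAA or MEF2 match. Of 10 genes within the fold, 6 (60%) held an E-box and 0 a MEF2 match, so the E-box was no rarer there. Slow Tnni1, at 5.46 FPKM in HSF V30M against 5.54 in HSF WT, also held an E-box, at -68 to -63 in one of its windows. A match is a run of letters and not a measured site.

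Most of the muscle genes that were measured above 1 FPKM were lower in HSF V30M than in HSF WT. Of the 42 genes, 27 had a mean over both groups of at least 1 FPKM. Of these 27, 16 were lower in HSF V30M by over 1.5-fold on FPKM + 1, 0 were higher by that fold, and 11 lay within it. Over all 15620 genes with such a mean, 8.44% were lower and 8.22% were higher by the same rule. As log2 ratios, which set HSF V30M over HSF WT and are computed on FPKM + 1 throughout, the 27 genes had a median of -0.77, with a range of -2.22 to 0.25, and all genes had a median of 0.0030. The minimum let in 4 genes with under 1 FPKM in HSF V30M (Mybpc2, Myoz1, Neb and Myl2) and 0 with under 1 FPKM in HSF WT, so these 4 passed through the group in which they are higher.

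**Figure D1:**
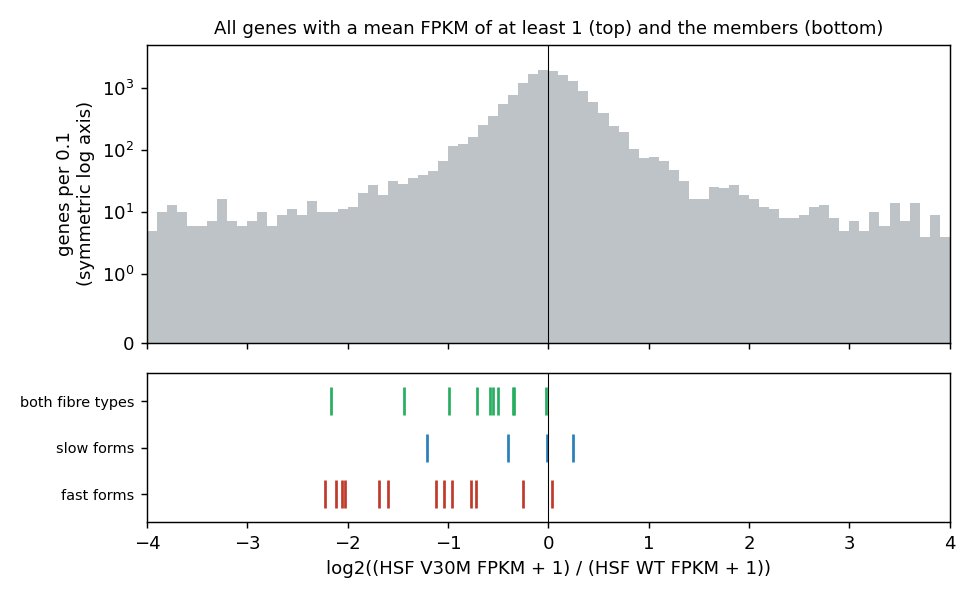
The top panel counts all genes with a mean of at least 1 FPKM by log2 ratio (x axis, HSF V30M over HSF WT on FPKM + 1) in steps of 0.1 on a symmetric log axis, and the bottom panel marks the 27 muscle genes by class. Fast forms reach -2.22, the highest gene is slow Tnnt1 at 0.25, and 195 of all genes lie beyond the axis limits of -4 and 4.

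In the ranking of all 15620 ratios, 13 of the 27 genes stood among the lowest 5% and 18 among the lowest 10%. Myh4 was at percentile 1.71, and Tnnt1, the highest, was at percentile 76.0. Summed over all 42 genes, the level was 478 FPKM in HSF V30M and 802 in HSF WT. The tropomyosins Tpm1, Tpm2 and Tpm3, which many non-muscle cells also make, held most of both sums, and without them the sums were 118 and 290.3 FPKM.

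The thick filament was led by Myh4 in both groups. Myh4 was at 3.74 FPKM in HSF V30M (95% interval 3.41 to 4.09) and at 21.1 in HSF WT (20.2 to 22.1). This level was 5.65-fold higher in HSF WT, the largest fold among the genes past 1.5. Fold differences of single genes are ratios of FPKM without 1 added. The values rest on 470 and 1901 fragments by this count on the longest transcript. Myh1, the IIX heavy chain, went the other way at a low level, with 0.53 FPKM (0.409 to 0.670) in HSF V30M and 0.224 (0.134 to 0.340) in HSF WT. Myh2, the IIA heavy chain, was at 0.17 and 0.239 FPKM, and slow Myh7 was at 0.12 and 0.135 FPKM, with overlapping intervals in both cases.

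The 6 heavy chain genes together summed to 4.59 FPKM in HSF V30M and 21.8 in HSF WT. Myh4 made up 81.5% of this sum for HSF V30M and 97.1% for HSF WT. Myh1 made up 11.5% and 1.03%, and Myh2 3.70% and 1.10%. The 5 chains other than Myh4 summed to 0.85 and 0.626 FPKM, so the heavy chain difference between the groups lay in Myh4. Developmental Myh3 and perinatal Myh8 were at or under the level of 3 fragments in both groups, with at most 0.02 FPKM.

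The heavy chain genes lie in 1 cluster on chromosome 11 apart from Myh7, and their transcripts share sequence that a read may not assign. Of the 100-base stretches of the longest transcript, 3.85% in Myh4, 9.73% in Myh1, 9.17% in Myh2 and 6.61% in Myh8 also occurred in another gene. For Myh7 the share was 11.2%, all of it with cardiac Myh6. The levels of Myh1, Myh2, Myh7 and Myh8 are therefore uncertain in a way that the intervals do not cover.

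The light chains and myosin binding proteins of fast fibres were lower in HSF V30M together with Myh4. Mylpf was at 7.55 FPKM in HSF V30M and 33.9 in HSF WT, a log2 ratio of -2.03. Myl1, the fast essential light chain, was at 3.54 and 8.31 FPKM (-1.04), and 9.36% of its 100-base stretches also occurred in the pseudogene Mylf-ps. Mybpc2, the fast myosin binding protein C, was at 0.80 and 4.44 FPKM (-1.60).

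The slow counterparts were low in both groups. Myl2 was at 0.81 FPKM (interval 0.415 to 1.40) in HSF V30M and 1.39 (0.789 to 2.33) in HSF WT, and the intervals overlap. Myl3 was at 0.09 and 0.346 FPKM, from as few as 1 and 4 fragments. Mybpc1 was at 0.26 (0.162 to 0.399) and 0.691 FPKM (0.497 to 0.947), higher in HSF WT beyond counting error.

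**Figure D2:**
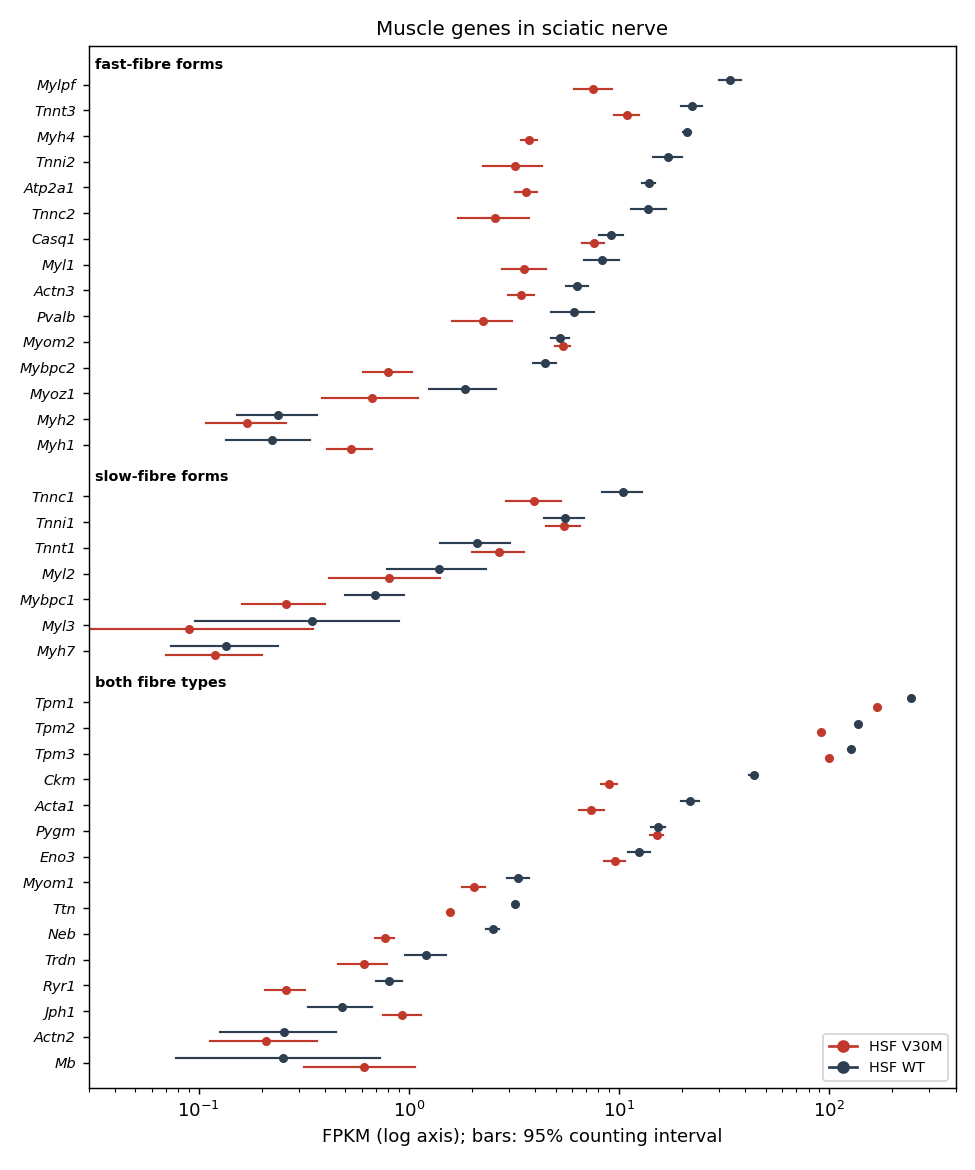
Each row is 1 muscle gene, with its FPKM in HSF V30M (red) and HSF WT (dark blue) on a log axis and bars for the 95% counting interval; the 5 genes at or under 3 fragments in both groups are left out. The bars of fast Myh4, Mylpf, Tnni2, Tnnc2 and Atp2a1 stand well apart with HSF WT to the right, those of Pygm, Myom2 and Tnni1 overlap, and the lower end of the HSF V30M bar of Myl3 lies beyond the left edge.

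Among the thin filament genes, all 3 fast troponins were lower in HSF V30M. Tnni2, the fast inhibitory subunit, was at 3.19 FPKM in HSF V30M and 17.1 in HSF WT (log2 ratio -2.11). Tnnc2, the fast calcium-binding subunit, was at 2.57 and 13.8 FPKM (-2.05). Tnnt3, the fast tropomyosin-binding subunit, was at 10.91 and 22.2 FPKM (-0.96).

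The slow troponins differed among themselves. Tnni1 was at 5.46 FPKM (interval 4.49 to 6.55) in HSF V30M and 5.54 (4.38 to 6.86) in HSF WT. Tnnt1 was at 2.69 and 2.11 FPKM, again with overlapping intervals. Tnnc1, the troponin C of slow fibres and of the heart, was at 3.94 (2.91 to 5.33) and 10.4 FPKM (8.33 to 12.9), and it was the only slow form past the fold.

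Acta1, the actin of the skeletal thin filament, was at 7.41 FPKM in HSF V30M and 21.8 in HSF WT, 2.94-fold higher in HSF WT. In the authors' table Acta1 shares its locus with 209 other genes, so its estimate depends on how reads were split among them. Neb, the nebulin ruler of the thin filament, was at 0.77 and 2.51 FPKM (log2 ratio -0.99). Tpm1 was at 168 and 247 FPKM (-0.55), Tpm2 at 91.9 and 138 FPKM (-0.58), and Tpm3 at 99.8 and 127 FPKM (-0.34). The tropomyosins were thus lower in HSF V30M but by less than the fold, and 45.7% of the stretches of Tpm3 also occurred in Tpm3-rs7.

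The Z-disc, which anchors thin filaments, and the M-band, which links thick filaments, gave a mixed picture. Ttn, the titin spring that spans from one to the other, was at 1.58 FPKM (1.53 to 1.63) in HSF V30M and 3.22 (3.14 to 3.31) in HSF WT. Counted on the longest of its 25 transcripts, of 106824 bases, these values stand for 3638 and 5313 fragments. Reads from its shorter transcripts would make them fewer. Actn3, the Z-disc actinin of fast fibres, was at 3.44 and 6.34 FPKM (log2 ratio -0.72), and Myoz1, a Z-disc protein of fast fibres that binds calcineurin, was at 0.67 and 1.85 FPKM (-0.77). These 3 genes were past the fold. Actn2, the actinin of all fibres and of the heart, was at 0.21 and 0.256 FPKM with overlapping intervals.

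Both M-band genes lay within the fold. Myom1 was at 2.04 FPKM (1.79 to 2.31) in HSF V30M and 3.32 (2.93 to 3.72) in HSF WT, and its locus in the table is shared with 14 other genes. Myom2, the form of fast fibres, was at 5.41 (4.98 to 5.87) and 5.26 FPKM (4.75 to 5.80). Myom2 was thus the one fast form with a higher value in HSF V30M among those above the minimum, by less than its counting interval.

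Of the genes that handle calcium, the fast pump and the buffer were lower and the calcium store was not past the fold. Atp2a1, the SERCA1 pump of fast fibres, was at 3.63 FPKM (3.20 to 4.10) in HSF V30M and 13.9 (12.9 to 14.9) in HSF WT. Pvalb was at 2.26 and 6.10 FPKM (log2 ratio -1.12). Casq1, the skeletal calsequestrin, was at 7.58 (6.70 to 8.54) and 9.21 FPKM (8.05 to 10.4), with overlapping intervals.

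The triad, where the surface membrane meets the calcium store, was represented by low levels. Ryr1, the calcium release channel, was at 0.26 FPKM (0.207 to 0.321) in HSF V30M and 0.806 (0.695 to 0.930) in HSF WT. Trdn, which ties the channel to calsequestrin, was at 0.61 (0.463 to 0.792) and 1.21 FPKM (0.964 to 1.51), and its locus in the table is shared with 8 other genes. Jph1, which holds both membranes together, was at 0.93 (0.754 to 1.14) and 0.480 FPKM (0.330 to 0.667), higher in HSF V30M.

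The energy genes did not move together. Ckm, the creatine kinase of muscle, was at 8.97 FPKM (8.20 to 9.80) in HSF V30M and 43.8 (41.8 to 46.0) in HSF WT. In log2 ratio, on FPKM + 1, it was second to Myh4. Without 1 added it was 4.89-fold higher in HSF WT, a smaller fold than those of Mybpc2 (5.55), Tnni2 (5.37) and Tnnc2 (5.37). Eno3, the muscle enolase, was at 9.55 and 12.5 FPKM (log2 ratio -0.36). Pygm, the muscle glycogen phosphorylase, was at 15.1 and 15.4 FPKM (-0.02), which is within counting error. Mb, the oxygen carrier myoglobin, was at 0.61 (0.317 to 1.07) and 0.251 FPKM (0.0780 to 0.733), with overlapping intervals.

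The regulators were at or under the level of 3 fragments in both groups. Myod1, a master factor of the muscle lineage, was at 0.03 and 0.0390 FPKM. Myog, which acts in muscle differentiation, was at 0.04 FPKM in HSF V30M. In HSF WT it was listed at 0, and 3 fragments of it would give 0.150 FPKM there. Pax7, the marker of satellite cells, was at 0.02 and 0.0114 FPKM. A difference in these 3 genes was not detectable at this depth.

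In total, 33 of the 42 genes had a higher value in HSF WT and 9 in HSF V30M. All 16 genes past the fold had counting intervals that did not overlap between the groups, which was also so for 92.3% of all genes lower past the fold that have a transcript of at least 500 bases. Their folds on FPKM without 1 added ran from 1.84 (Actn3) to 5.65 (Myh4), with a median of 3.10. They lie on 8 chromosomes, and 6 of the 16 are on chromosome 7, which holds 9 of the 42 genes. On the log2 scale of FPKM + 1, which sets the calls, 1.5-fold corresponds to 0.585. On that scale the nearest gene past the fold was Ttn at -0.711 and the nearest within it was Tpm2 at -0.579.

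Among the 15 genes with a mean under 1 FPKM, 7 were higher in HSF V30M and 8 in HSF WT. Of these 15, 5 had intervals apart, with Myh1 and Jph1 higher in HSF V30M and Mybpc1, Ryr1 and Trdn higher in HSF WT. Over all 11918 genes under that mean with a value above 0 and a transcript of at least 500 bases, 7.12% had intervals apart.

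Fast forms stood further from 0 than slow forms. Of 13 fast forms with a mean of at least 1 FPKM, 11 were lower past the fold and 2 within it, with a median log2 ratio of -1.12. Of 4 slow forms, 1 was lower past the fold and 3 within it, with a median of -0.21. Of 10 genes of both fibre types, 4 were lower past the fold and 6 within it, with a median of -0.56. The difference between classes was not tested.

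The ratio of a fast to a slow form is taken within a group and needs no scaling between groups. It was computed for 9 pairs, with 95% exact binomial intervals on the fragments, and it was higher in HSF WT in 7 of the 9. The intervals were apart in 4 of these 7 and in 1 of the pairs that went the other way, calsequestrin. For calsequestrin, which cells gave the reads of the slow form was not tested. For the heavy chains, Myh1, Myh2 and Myh4 over Myh7 gave 37.0 (22.6 to 65.2) in HSF V30M and 160.0 (93.3 to 301) in HSF WT. Without Myh4 this order turned, with 5.83 in HSF V30M and 3.43 in HSF WT, so the heavy chain ratio rests on Myh4.

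Of the troponin pairs, troponin I differed most. Tnni2 over Tnni1 was 0.584 (0.395 to 0.848) in HSF V30M, where the slow form was the higher, and 3.10 (2.35 to 4.11) in HSF WT, where the fast form was. Tnnt3 over Tnnt1 was 4.06 (2.97 to 5.64) and 10.5 (7.12 to 16.1). Tnnc2 over Tnnc1 was 0.652 (0.392 to 1.07) and 1.32 (0.986 to 1.78), with overlapping intervals.

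The calcium pairs went opposite ways. Atp2a1 over Atp2a2, the pump of slow fibres, heart and many other cells, was 0.123 (0.108 to 0.140) in HSF V30M and 0.467 (0.428 to 0.510) in HSF WT, and Atp2a2 itself was at 29.5 and 29.7 FPKM. Casq1 over Casq2, the calsequestrin of heart and slow muscle, was 0.293 (0.256 to 0.334) and 0.153 (0.133 to 0.175). Casq2 itself was at 25.9 FPKM in HSF V30M and 60.1 in HSF WT. The 7 slow forms among the muscle genes reached at most 5.46 and 10.4 FPKM, and the 9 cardiac markers below at most 11.6 and 7.67 FPKM. Which cells gave the Casq2 reads was not tested, so this pair may not compare fast with slow fibres.

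For the remaining pairs the intervals were wide and overlapped. Mylpf over Myl2 was 9.32 (5.09 to 18.7) in HSF V30M and 24.3 (14.5 to 44.0) in HSF WT. Mybpc2 over Mybpc1 was 3.08 (1.84 to 5.33) and 6.43 (4.58 to 9.23). Myl1 over Myl3 was 39.3 (6.83 to 1576) and 24.0 (9.11 to 89.6), resting on as few as 1 and 4 fragments of Myl3, and this order turned with 1 added to each level (4.17 and 6.91).

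**Figure D3:**
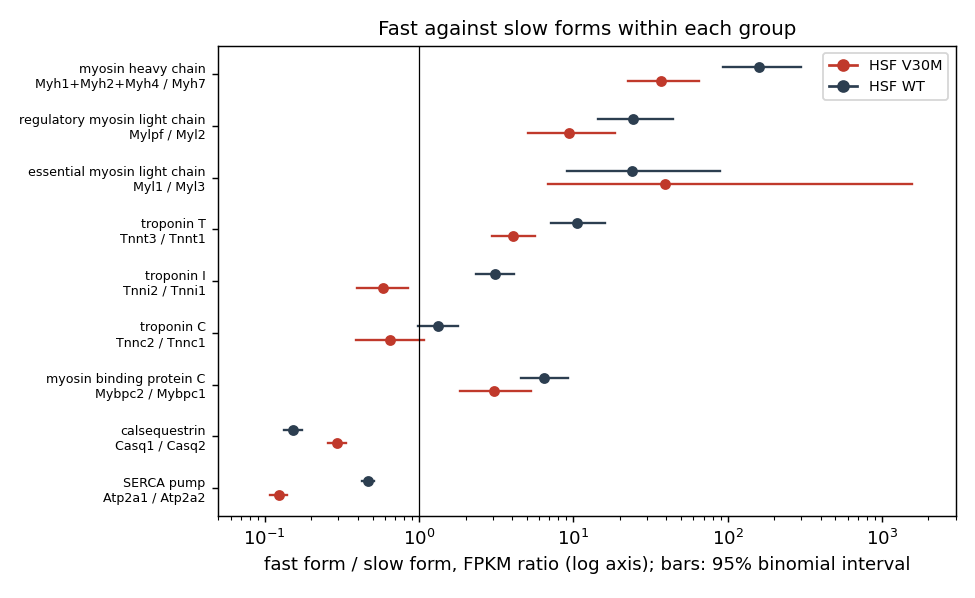
The x axis gives the FPKM of the fast form over that of the slow form on a log axis for 9 proteins, in HSF V30M (red) and HSF WT (dark blue), with 95% exact binomial intervals as bars. The HSF WT point lies to the right in 7 pairs, and calsequestrin and the essential light chain are the exceptions.

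Other genes of skeletal muscle, outside the 42, were read in the same way to see how wide the pattern was. Of 77 such genes, 30 had a mean of at least 1 FPKM, and of these 4 were lower past the fold, 2 were higher and 24 lay within it. The minimum let in 4 of the 30 with a value under 1 FPKM in 1 group, and of those past the fold these were Ldb3 (in HSF V30M) and Synpo2l (in HSF WT). The median log2 ratio of the 30 was -0.01, with 14 above 0 and 16 below. The share lower was 13.3%, beside 8.44% of all genes and 59.3% of the 27 genes above, which were chosen with their values known. The list of other muscle genes was also chosen with earlier results of these data known, so these shares carry no test.

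The lower ones were Casq2 (log2 ratio -1.18), Ldb3, a Z-disc protein at 0.73 and 2.35 FPKM (-0.95), Mef2c, a transcription factor of muscle and other cells at 14.4 and 25.0 FPKM (-0.75), and Pgam2, the muscle phosphoglycerate mutase at 1.64 and 3.05 FPKM (-0.62). Pdlim3, a Z-disc adaptor, followed within the fold at 2.31 and 3.75 FPKM. Pgam2 was the one whose counting intervals overlapped.

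The higher ones were Mybph, a thick filament protein at 38.7 FPKM in HSF V30M and 22.1 in HSF WT (0.78), and Synpo2l, a Z-disc protein at 1.64 and 0.676 FPKM (0.66). Jph2, at 2.71 and 1.54 FPKM, Tmem38a, a channel of the calcium store at 9.54 and 6.99 FPKM, and Chrnb1, an acetylcholine receptor subunit at 4.82 and 3.43 FPKM, came next within the fold. The excitation-contraction genes of this list had a median of -0.16 over 8 genes, and the energy genes had a median of -0.02 over 8 genes.

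Markers of other cell types were read beside these results, and their part in the muscle result was not tested. Their lists, too, were chosen with earlier results of these data known. The 11 adipocyte markers summed to 2676 FPKM in HSF V30M and 3685 in HSF WT, 4 of 11 were lower past the fold and 0 higher, and their median log2 ratio was -0.41. Their most abundant genes were Cfd at 1188 and 1467 FPKM, Fabp4 at 462 and 722 FPKM, and Adipoq at 319 and 543 FPKM. The 8 fibroblast markers had a median of -0.30, with 2 of 8 lower.

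The 8 smooth muscle markers summed to 880 and 1494 FPKM, most of it Tagln at 472 and 1102 FPKM, and 2 of 8 were lower and 1 higher. Acta2, the defining actin of smooth muscle, was at 147 and 137 FPKM. The 9 cardiac markers summed to 21.4 and 14.8 FPKM, with 3 of 9 above the minimum, 0 past the fold and a median of 0.32. The most abundant of them were Tnni3, the cardiac troponin I, at 11.6 and 7.67 FPKM with intervals apart, and Tnnt2, the cardiac troponin T, at 5.41 and 4.36 FPKM with overlapping intervals. Nppb was listed at 0 in HSF WT.

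Like the cardiac markers, the remaining lists had medians above 0. Of the 11 Schwann cell markers, 1 was higher past the fold and 0 were lower, with a median of 0.16. The 6 endothelial markers had a median of 0.11 with 1 of 6 higher, and the 6 erythrocyte markers summed to 291 and 101 FPKM with 5 of 6 higher and a median of 1.40. Of 4 brown adipocyte markers, 1 had a mean of at least 1 FPKM and it lay within the fold.

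**Figure D4:**
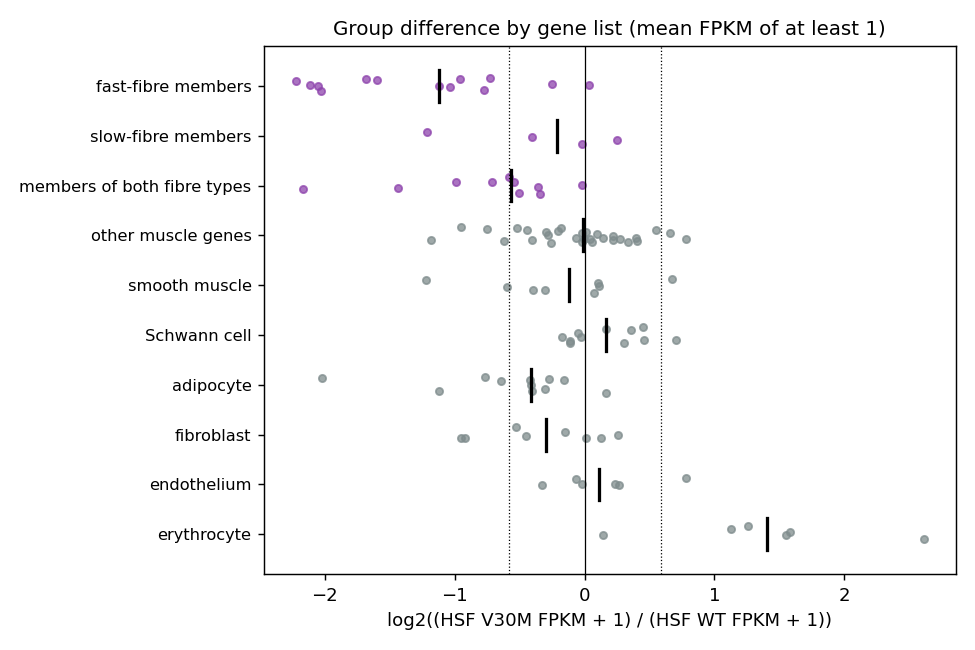
Each point is the log2 ratio (HSF V30M over HSF WT, on FPKM + 1) of 1 gene with a mean of at least 1 FPKM, grouped by list, with a bar at the median and dotted lines at 1.5-fold. Fast muscle forms have a median of -1.12, other muscle genes of -0.01 and erythrocyte genes of 1.40.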

How the data were processed

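RNA from sciatic nerve of HSF V30M and HSF WT mice was sequenced on an Ion Torrent platform, per the labels. STAR, Cufflinks and Cuffdiff are named, without versions, in the submitters' processing notes, and reads were aligned to GRCm38. The authors deposited 1 Cuffdiff table with 1 FPKM per gene and group, the HSF V30M column being rounded to 2 decimals. Its further columns hold the authors' own fold change, test statistic, p-value, q-value and call, which were not used.

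Decimal commas were replaced by points, and 23 of 50593 genes without an estimate were left out. Differences were computed as log2 of the ratio of FPKM + 1, and a gene was past the fold when this ratio exceeded 1.5 in either direction and its mean FPKM was at least 1. The muscle genes and all gene lists were chosen with earlier results of these data known. All 42 genes are described; of the other muscle genes, the 5 highest and 5 lowest ratios and the members of isoform pairs are named, and of some marker lists up to 3 abundant genes. The level of 1 marker gene is not reported here.

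The worth of 1 fragment was taken from genes that have 1 transcript and a locus to themselves: in HSF WT, 98.2% of 1172 values came within 2% of whole fragments at depths in a ratio of 1.35, and in HSF V30M, 79.6% of 383 values of at least 0.1 FPKM came within 5%, a weaker check because of the rounding. Fragments were counted on the longest protein-coding transcript of GENCODE M21, and the floor was 3 fragments. Protein identity between forms, planned in the design, was replaced by shared 100-base transcript stretches. Genes on GRCm38 were matched by identifier, 50369 of 50593. Calls and fragment worth were tested on simulated data. Computations ran in Python 3.11.15 with scipy 1.17.1, numpy 2.4.6 and pandas 2.3.3, and plots were drawn with matplotlib 3.10.9. Alternatives were a pseudocount of 0.1, no minimum and a minimum of 5 FPKM, a fold of 2, median-of-ratios scaling, and leaving out the tropomyosins or the heavy chain cluster.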

Additional observations from a re-analysis of the deposited data

How the results depend on the processing

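No paired analysis was possible because mice of a group were merged into 1 FPKM per gene, and leaving out each replicate was not run for the same reason. The spread between mice is therefore unknown, and the intervals cover counting error only.

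Of the 42 muscle genes, 0 were higher past the fold under every alternative run. Lower genes were 10 of 18 with a minimum mean of 5 FPKM, 11 of 27 at a fold of 2 and 18 of 27 with a pseudocount of 0.1, against 16 of 27. Over all genes the share lower was 6.33%, 3.94% and 10.8% under these settings, against 8.44%. The median log2 ratio of the muscle genes stayed below 0, from -0.44 with no minimum to -1.02 with a pseudocount of 0.1. That of the fast forms stayed between -1.04 and -1.68, and that of the slow forms between -0.21 and -0.61. For the other muscle genes, 6 of 30 past the fold became 10 of 30 with a pseudocount of 0.1 and 10 of 73 with no minimum. They became 3 of 12 with a minimum of 5 FPKM and 1 of 30 at a fold of 2. Over all genes, 10.9% were higher and 10.8% lower with a pseudocount of 0.1, and 6.06% and 6.30% with no minimum. With a minimum of 5 FPKM these shares were 7.17% and 6.33%, and at a fold of 2 they were 3.98% and 3.94%. The median of the other muscle genes moved above 0, to 0.0013, with a minimum of 5 FPKM.

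A pseudocount of 1 moved the fast to slow ratios of low genes towards 1. The heavy chain ratio became 4.86 in HSF V30M and 19.9 in HSF WT, that of myosin binding protein C 1.43 and 3.22, and that of the essential light chain 4.17 and 6.91. In HSF V30M the regulatory light chain ratio became 4.72 and the SERCA ratio 0.152. Without Myh4 the heavy chain ratio came to 5.83 (HSF V30M) and 3.43 (HSF WT). The order of the groups thus turned for the heavy chain without Myh4 and for the essential light chain with a pseudocount of 1. In all, 46 alternative values stayed within the tolerance set for them, which includes that median of the other muscle genes, and 15 moved.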
